A study of Mus musculus with 20 samples.

Results

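The metallothioneins and zinc handling genes described here are 6 genes: Mt1, Mt2, Mt4, Mtf1, Slc30a1 and Slc39a4. They were taken by gene name from 2 deposited count tables of mouse colon RNA, which list 56748 genes for chow and 31184 genes for a high fat diet (HFD), and all 6 are in both tables. They were chosen by name with the measured levels of the chow Vill and chow ff libraries known, where Mt1, Mt2 and Mt4 were higher in Vill, so those values are given below as a description, without a test. The series holds 20 libraries in 5 groups of 4 animals each. In every group the mice carried a floxed Pcca gene, whose protein is part of the mitochondrial carboxylase that takes up propionyl-CoA made from propionate. The Pcca ff animals served as littermate controls. In the Pcca Vill groups Pcca was deleted by Villin-Cre, whose promoter is active in gut epithelium, which asks what the loss does locally in the colon. In the Pcca Alb group it was deleted in the liver by Albumin-Cre, whose promoter is active in hepatocytes, so the colon should keep the gene. The Vill and Alb groups thus differ from ff by a Cre transgene as well as by the loss of Pcca, and these cannot be told apart here. Chow ff, chow Vill and chow Alb mice were killed at 9 weeks of age. HFD ff and HFD Vill mice were males that ate chow until 6 weeks of age, received a diet in which fat supplied 60% of the energy during the next 12 weeks, and were killed at 18 weeks. All were fasted for 4 h before death. Colon pieces were flushed, frozen and homogenized whole, so the libraries mix epithelium with muscle, immune and other cells, and fewer cells of a type cannot be told apart from less RNA per cell.

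Metallothioneins are small proteins rich in cysteine that bind zinc and copper and buffer the free ions in the cell. Mt1 and Mt2 are made in most tissues and are known to rise with metals, glucocorticoids and oxidative stress, whereas Mt4 is known from stratified squamous epithelium. Mtf1 is the transcription factor that senses zinc and binds metal response elements in front of Mt1, Mt2 and Slc30a1. Slc30a1, also called ZnT1, exports zinc across the cell membrane, and Slc39a4, also called ZIP4, imports dietary zinc at the luminal side of the gut epithelium and is removed from the membrane when zinc is plentiful.

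The promoters are shown because Mt1, Mt2 and Slc30a1 are known as targets of a single factor whose element can be read in the sequence. Mt4 is shown beside them. The core of the metal response element was searched as TGCACNC and as TGCGCNC on both strands, with no overlap between the matches below, in windows from 250 bases before to 50 bases after each start site. The windows come from RefSeq on GRCm38.p6, not on the build of the count tables, and 5 of the 6 genes were matched by symbol. Capitals mark each match on either strand. Windows lie at chr8:94178839-94179138 for Mt1, chr8:94172368-94172667 for Mt2, chr8:94136954-94137253 for Mt4 and chr1:191906531-191906830 for Slc30a1, all on the plus strand.
Mt1: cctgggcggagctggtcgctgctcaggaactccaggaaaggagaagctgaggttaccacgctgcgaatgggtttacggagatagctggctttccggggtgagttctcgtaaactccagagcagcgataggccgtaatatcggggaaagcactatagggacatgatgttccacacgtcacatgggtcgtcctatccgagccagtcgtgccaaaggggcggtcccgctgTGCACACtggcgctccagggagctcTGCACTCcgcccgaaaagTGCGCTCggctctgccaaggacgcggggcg
Mt2: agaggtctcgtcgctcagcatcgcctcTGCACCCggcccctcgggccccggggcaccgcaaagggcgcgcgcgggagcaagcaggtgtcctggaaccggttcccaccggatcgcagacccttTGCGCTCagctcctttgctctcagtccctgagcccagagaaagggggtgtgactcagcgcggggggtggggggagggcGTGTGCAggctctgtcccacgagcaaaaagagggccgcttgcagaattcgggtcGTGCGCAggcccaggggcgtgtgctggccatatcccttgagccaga
Mt4: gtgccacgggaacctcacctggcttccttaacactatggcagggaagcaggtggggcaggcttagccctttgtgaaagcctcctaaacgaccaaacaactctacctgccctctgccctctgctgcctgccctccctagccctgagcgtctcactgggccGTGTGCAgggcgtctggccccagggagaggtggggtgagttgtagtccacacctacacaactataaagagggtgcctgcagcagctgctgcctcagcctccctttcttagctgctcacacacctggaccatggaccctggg
Slc30a1: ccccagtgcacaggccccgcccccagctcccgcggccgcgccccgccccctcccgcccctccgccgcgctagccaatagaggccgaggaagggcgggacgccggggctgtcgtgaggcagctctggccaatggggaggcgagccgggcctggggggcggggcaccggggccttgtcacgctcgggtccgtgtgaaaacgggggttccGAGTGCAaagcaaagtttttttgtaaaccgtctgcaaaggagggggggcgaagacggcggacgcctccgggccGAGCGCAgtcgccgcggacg
The Mt1 window holds 3 matches, which begin 23 bases before the start site and 2 and 20 bases after it, counted from its first base as 0. In the Mt2 window there are 4 matches, beginning at -223, -128, -50 and 4. Slc30a1 has 2, at -43 and 30, and Mt4 has 1, at -91. No match was found in the window of Mtf1 itself, at chr4:124802299-124802598. Of 32851 promoter windows of this length, 25.7% hold at least 1 match, 6.14% at least 2, 1.31% at least 3 and 0.295% at least 4. A match describes the letters in the window and was not tested as a binding site. Positions and counts depend on the RefSeq start site, and elements outside the window are not counted.

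Library totals ran from 27.9 to 40.4 M counts on chow and from 16.9 to 24.4 M on HFD. Levels below are CPM, reads scaled to a common library total on the TMM scale, separately for each table, and errors are SDs over 4 animals. All 10 colon epithelium markers had reads in every library, with summed levels of 11353 to 34720.0 CPM. Pcca on chow was 39.5 to 57.2 CPM in ff, 27.7 to 33.6 in Vill and 38.9 to 58.3 in Alb. On HFD it was 33.2 to 37.3 CPM in Vill and 29.9, 53.7, 32.5 and 59.5 CPM in ff. The libraries labelled HFD ff 1 and 3 thus had less Pcca than every HFD Vill library, against what their label implies. These gene totals also count reads outside any deleted exon and from cells without Cre. The same 2 libraries held the small intestine gene Sis, a sucrase, at 59.7 and 76.9 CPM, against 1.29 and 0.98 in HFD ff 2 and 4 and at most 2.02 in HFD Vill. Sis was also high in chow ff 2 (32.7 CPM) and chow Vill 1 (59.6 CPM). Chow Alb 2 stood apart by squamous epithelium genes, 10 of which summed to 102.5 CPM there and to 2.44 to 10.1 CPM in all other libraries. Xist and Ddx3y reads were those of females in all 12 chow libraries and of males in all 8 HFD libraries, so diet, age and sex differ together, and chow and HFD were not compared by a test.

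Mt1 (ENSMUSG00000031765, mm39 chromosome 8 from 94905710 to 94906955, plus strand), a general metal buffer, was the most abundant of the metallothioneins per length in every group. The count of Mt2 in this ranking is limited by an overlapping gene, as described below. Mt1 was 34.5, 79.3, 71.8 and 54.2 CPM in the 4 chow ff libraries. Chow Vill libraries had 339, 189.9, 352 and 247 CPM. The lowest of these is more than the highest ff value, so the groups did not overlap. Of the 6 genes, 3 (Mt1, Mt2 and Mt4) had every chow Vill library above every ff library, against 0.665% of the 19701 genes tested, and nothing is read from this since the same libraries chose the genes. Called genes in that contrast made up 0.00508%. Group means were 60.0 ± 20.0 CPM in chow ff and 282 ± 77.2 in chow Vill (n = 4 each), a 4.70-fold ratio (95% interval 2.94 to 7.52), or 2.23 on the log2 scale. Chow Alb libraries had 82.3, 137, 72.6 and 135 CPM (107 ± 34.1), also below every chow Vill library. The log2 fold change of chow Vill over chow Alb was 1.40 (0.74 to 2.06). In that contrast 2 of the 6 genes, Mt1 and Mt4, did not overlap, 2.59% of all genes lay higher in every Vill library, and 0.00508% were called. Nothing is read from this count either, since the same Vill libraries put the genes forward. All 8 smooth muscle markers had negative log2 fold changes in chow Vill over ff and over Alb (0 called). Their summed levels overlapped between libraries, at 1012 to 6689 CPM in Vill, 4039.7 to 8265 in ff and 4391 to 11489.9 in Alb. The part of smooth muscle in the Mt1 level was not tested.

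**Figure D1:**
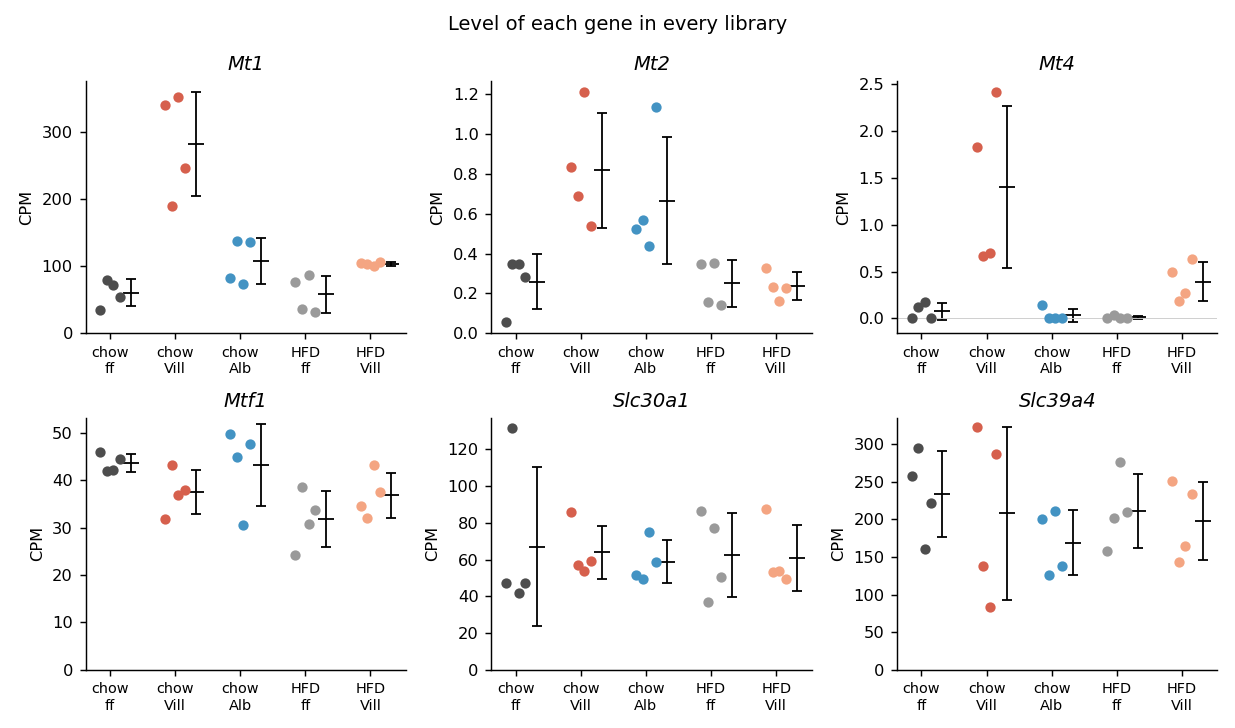
CPM of the 6 genes in every library, by group, on linear axes; points are libraries, and the bar to the right of each group is the mean with its SD (n = 4). Mt1 is highest in chow Vill (189.9 to 352 CPM) and lies between 99.7 and 106 CPM in all 4 HFD Vill libraries, while Mtf1, Slc30a1 and Slc39a4 overlap between all groups of a diet.

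The HFD libraries come from other animals and another table than the chow levels that put the genes forward, so Mt1 was tested there. Earlier results of these data were known when the genes were chosen, so the HFD p-values may not be those of unseen samples. HFD ff libraries had 75.3, 36.5, 86.9 and 31.9 CPM, and HFD Vill libraries had 104, 103.5, 99.7 and 106 CPM. All 4 Vill libraries lay above all 4 ff libraries, as did those of 1.22% of the 17715 genes tested. Means were 57.7 ± 27.5 and 103 ± 2.73 CPM, a log2 fold change of 0.84 (SE 0.31, 95% interval 0.15 to 1.54) or 1.79-fold. An exact 2-sided permutation test gave p = 0.0286, the smallest that 4 against 4 libraries allow. In edgeR's quasi-likelihood test over all genes the adjusted p (Benjamini-Hochberg) was 0.932, so Mt1 was not called. Called genes made up 0.00564% of those tested there, which is 1 gene, Gm45774, whereas 612 had an unadjusted p under 0.05. DESeq2 called 4 genes and limma-voom 1.

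High Mt1 within HFD ff went with high Sis. The libraries labelled HFD ff 1 and 3, with Sis at 59.7 and 76.9 CPM, were also the 2 with the most Mt1. Without them the log2 fold change of Mt1 was 1.60 and its adjusted p was 0.0138 in edgeR, against 0.84 and 0.932 with them. Leaving out the 2 control libraries with the highest Mt1 raises the ratio by construction, and 2 ff libraries remain. Under the other tests and scalings without these 2 libraries, chosen after seeing the data, the value was 1.60 each time, and over all alternatives the adjusted p ran from 2.37e-19 to 1. Of the 10 small intestine enterocyte markers 7 were tested on HFD, and all 7 were lower in Vill (0 called), with list sums of 296 to 853 CPM in ff and 289 to 515 in Vill. Fabp6, the ileal bile acid binding protein, was 25.6 and 18.0 CPM in HFD ff 1 and 3 and at most 5.70 CPM in the other 18 libraries. The defining markers Lct, Apoa4 and Apoc3 were at most 0.234, 0.409 and 0.319 CPM in any HFD library. The part of tissue makeup in the Mt1 level of HFD ff was not tested. On chow the 2 libraries with high Sis, ff 2 and Vill 1, had 79.3 and 339 CPM of Mt1, and without either one the Vill over ff value was 2.39 and 2.11.

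Chow Alb against chow ff shares its ff libraries with the contrast that put the genes forward, so for Mt1, Mt2 and Mt4, which were low in those libraries, its values are given without a test. Mt1 was 0.83 higher in Alb on the log2 scale (0.18 to 1.49), with 3 of 4 Alb libraries above the highest ff library. None of 19701 genes was called in this comparison (percent called 0), with 867 at an unadjusted p under 0.05, 4 called by DESeq2 and 0 by limma-voom. Without Alb 2, the library with squamous epithelium genes, the Mt1 value was 0.69. In order of mean level, Mt1 was highest in chow Vill, followed by chow Alb, HFD Vill, chow ff and HFD ff. Chow Alb and HFD Vill overlap in this order, as do chow ff and HFD ff. The chow and HFD levels were scaled separately and differ in diet, age and sex together, so the order is a description only.

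**Figure D2:**
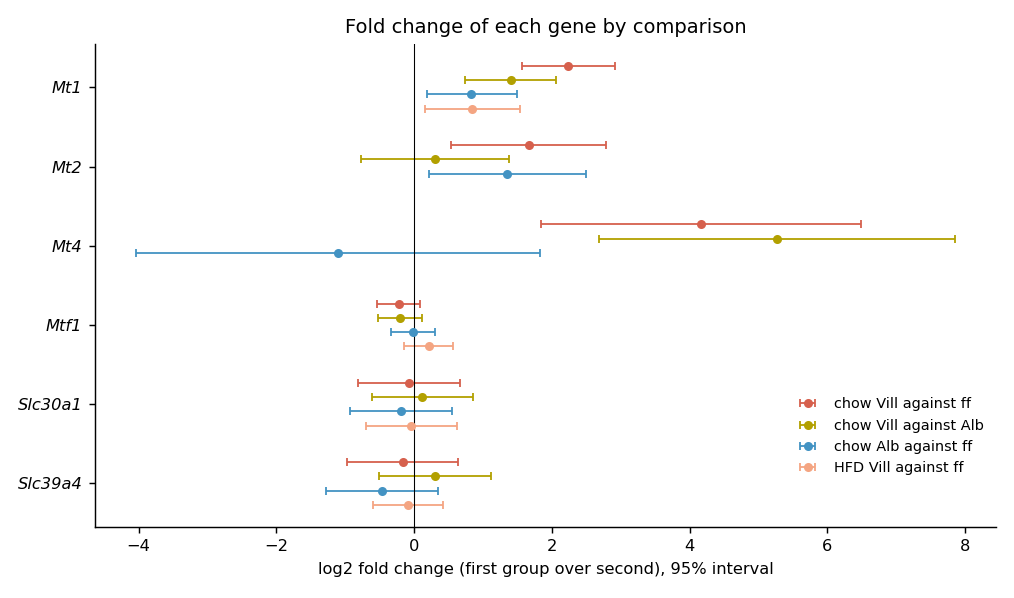
log2 fold changes of the 6 genes from edgeR with 95% intervals in the comparisons in which they passed the expression filter; each row is a gene and each color a comparison. Mt1 lies above 0 in all 4 comparisons, and the intervals of Mtf1, Slc30a1 and Slc39a4 include 0 throughout.

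Mt4 (ENSMUSG00000031757, mm39 chromosome 8 from 94863825 to 94865659, plus strand), the squamous epithelium metallothionein, was scarce but separated Vill from the other groups on both diets. Chow ff libraries held 0, 4, 6 and 0 reads, chow Alb 4, 0, 0 and 0, and chow Vill 57, 27, 30 and 63. No ff or Alb library reached the lowest chow Vill library. Mean levels were 0.0748 ± 0.0886 CPM in chow ff and 1.40 ± 0.865 in chow Vill. Reads summed over a group and set against library size gave a ratio of 17.1 to ff (counting interval 9.09 to 36.3) and 39.9 to Alb (15.3 to 148). All 4 reads of chow Alb came from Alb 1, and without it the log2 fold change of Vill over Alb went from 5.27 to 8.57, against a group then at 0 reads.

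On HFD, Mt4 gave 0, 1, 0 and 0 reads in ff and 9, 4, 5 and 14 in Vill. All 4 Vill libraries lay above all 4 ff libraries, as did those of 1.22% of the 17715 genes tested, which leave out Mt4. The exact permutation p was 0.0286, the smallest that 4 against 4 libraries allow. Any gene without overlap reaches that value, so it adds nothing to the lack of overlap. The ratio of summed reads, 32 against 1, was 34.4 with a counting interval of 5.74 to 1399.5, which covers counting error only. Mt4 failed the expression filter on HFD, and in a fit without the filter its log2 fold change was 4.55 with an adjusted p of 0.814 (edgeR). The 4 Mt4 reads of chow Alb and the 10 of chow ff are too few to compare these groups, and the gene passed the chow filter only through the Vill libraries. Summed squamous epithelium genes overlapped between the groups: the Vill libraries summed to 2.44 to 4.63 CPM on chow and 2.45 to 8.11 on HFD, and ff to 3.15 to 4.03 and 3.24 to 10.1. Of the 4 squamous genes tested in chow Vill against ff, 2 were higher and 2 lower, from -1.82 for Krt5 to 0.47 for Dsg3. Krt14, chosen from this list after its values were seen, was 0.514 to 0.805 CPM in chow Vill, below all chow ff libraries (0.817 to 1.76 CPM). Sprr3 was at 0 in all 5 groups. In chow Alb 2, with 102.5 CPM of squamous genes, Mt4 had 0 reads.

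Mt2 (ENSMUSG00000031762, mm39 chromosome 8 from 94899292 to 94900196, plus strand) is the partner of Mt1 in most tissues, yet its reads were few. Chow ff libraries had 2, 11, 12 and 10 reads, chow Vill 26, 28, 52 and 14, and chow Alb 15, 22, 12 and 36. Mean levels were 0.259 ± 0.137, 0.818 ± 0.288 and 0.665 ± 0.320 CPM in that order. Every Vill and every Alb library lay above every ff library in CPM, while Vill and Alb overlapped. The log2 fold change was 1.66 (0.53 to 2.79) for chow Vill over ff and 0.30 (-0.77 to 1.37) for Vill over Alb. For Alb over ff, which sets the same low ff values as control and is a description too, it was 1.35 (0.22 to 2.49). In that comparison 1.23% of genes had all Alb libraries above all ff libraries.

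On HFD a difference in Mt2 was not detectable with these few reads. The ff libraries held 8, 4, 6 and 3 reads and the Vill libraries 6, 5, 3 and 5, with an exact permutation p of 1. The ratio of summed reads, Vill over ff, was 0.972, with a counting interval of 0.494 to 1.90. Mt2 failed the expression filter there, so 4 of the 6 genes were in the HFD fit.

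Mt2 shares its place with another gene, and this limits what its count means. Gm45774 (ENSMUSG00000110588), a long noncoding RNA on the minus strand from 94897376 to 94900040, covers 749 of the 905 bases of Mt2 and leaves 156 outside. The strand setting of the count is not given in the sources used here, so reads from the shared bases cannot be told apart. Gm45774 had 3, 4, 0 and 14 reads in chow ff, 6, 2, 7 and 0 in chow Alb, and 2511, 2268, 2206 and 2333 in chow Vill. On HFD it had 1, 0, 1 and 1 reads in ff and 1431, 1339, 761 and 1349 in Vill. The libraries labelled HFD ff 1 and 3, low in Pcca, were thus with the other ff libraries by this gene. On HFD its log2 fold change was 10.54 (9.63 to 11.45) with an adjusted p of 2.07e-05 in edgeR. Mt2 reads as a share of Mt1 reads were 0.432% in chow ff, 0.301% in chow Vill, 0.608% in chow Alb, 0.435% in HFD ff and 0.227% in HFD Vill. The share was under 1% in all 5 groups. The overlap on the map is the same in each group, so these shares cannot tell whether it cost Mt2 reads, which was not tested.

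Values differed between genes within the metallothionein cluster. Mt3, the brain metallothionein, which lies between Mt4 and Mt2 and was added after its values were seen, had 2.59 ± 1.30 CPM in chow ff and 3.34 ± 3.26 in chow Vill. Chow Vill 1 held 7.88 CPM, and without it the log2 value of Vill over ff went from 0.36 to -0.53. On HFD it was 2.94 ± 1.78 in ff and 2.40 ± 1.08 in Vill (log2 -0.29, -1.48 to 0.90), with an exact permutation p of 0.714. Without HFD ff 1 and 3 the sign turned, to 0.30. Mt4 ends 40.1 kb before the start of Mt1, Mt3 ends 24.9 kb before it and Gm45774 5.7 kb before it.

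**Figure D3:**
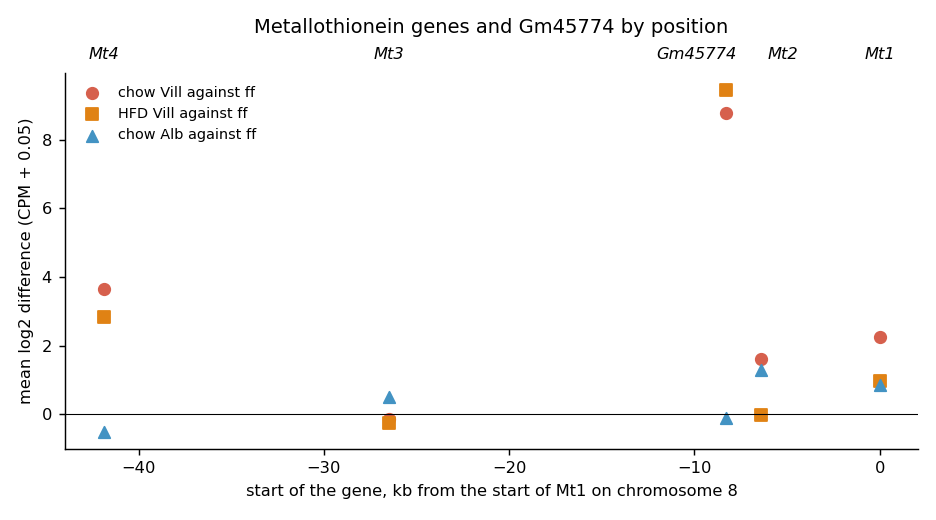
Mean log2 difference (CPM + 0.05) of the metallothionein genes and Gm45774 against the start of each gene in kb from the start of Mt1, for 3 comparisons. Gm45774 and Mt4 are the highest points in both Vill comparisons, Mt3 between them is near 0, and Mt2 is above 0 in both chow comparisons and at -0.01 on HFD.

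Mtf1 (ENSMUSG00000028890, mm39 chromosome 4 from 124695897 to 124743593, plus strand), the zinc sensor, did not differ beyond the spread between libraries. It was 46.0, 41.9, 42.2 and 44.5 CPM in chow ff, 31.8, 43.3, 36.8 and 38.0 in chow Vill, and 49.7, 44.8, 30.6 and 47.6 in chow Alb. The chow groups overlapped, with log2 fold changes of -0.22 (-0.54 to 0.09) for Vill over ff and -0.02 (-0.33 to 0.30) for Alb over ff (exact permutation p = 0.971). HFD ff had 24.3, 38.5, 30.8 and 33.7 CPM, and HFD Vill 34.6, 32.02, 43.1 and 37.5. The HFD log2 fold change was 0.21 (-0.15 to 0.57), with an exact permutation p of 0.257 and an adjusted p of 0.932 in edgeR.

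Slc30a1 (ENSMUSG00000037434, mm39 chromosome 1 from 191638879 to 191645359, plus strand), the zinc exporter with the same element in its promoter, showed some high libraries within groups rather than group differences. Chow ff had 47.4, 132, 41.8 and 47.4 CPM, chow Vill 85.7, 57.1, 53.9 and 59.0, and chow Alb 51.8, 49.4, 75.1 and 59.0. HFD ff had 86.4, 36.9, 77.0 and 50.4 CPM, and HFD Vill 87.8, 53.1, 53.7 and 49.4. All comparisons overlapped. On HFD the log2 fold change of Vill over ff was -0.04 (-0.70 to 0.62), with an exact permutation p of 1 and an adjusted p of 0.992 in edgeR. For chow Alb over ff it was -0.19 (-0.93 to 0.55), exact permutation p of 1, and without chow ff 2 it turned to 0.38. Chow Vill over ff was -0.07 (-0.81 to 0.66) and 0.48 without chow ff 2.

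High Slc30a1 went with Sis in most cases. In the 4 libraries with Sis above 30 CPM (32.7 to 76.9), 2 of them ff on HFD and 1 each ff and Vill on chow, Slc30a1 was 77.0 to 132 CPM. In the other 16 libraries, where Sis was at most 2.02 CPM, it was 36.9 to 87.8 CPM, and only HFD Vill 1 (87.8 CPM, Sis 0.436 CPM) exceeded 75.1 CPM. These groups of libraries are a description made after seeing the values, and the part of tissue makeup in the Slc30a1 level was not tested. Sis belongs to the list of 10 small intestine markers, and the rest did not all follow it. Fabp6 was 2.29 and 5.24 CPM in chow ff 2 and chow Vill 1, against 5.70 in HFD Vill 2. The list summed to 1026.6, 897.0, 613.0 and 852.8 CPM in chow ff 2, chow Vill 1, HFD ff 1 and HFD ff 3. With low Sis, chow Alb 3, chow Vill 4 and chow Alb 1 summed to 811.5, 695.5 and 628.4 CPM. Without HFD ff 1 and 3 the HFD log2 fold change of Slc30a1 was 0.49.

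**Figure D4:**
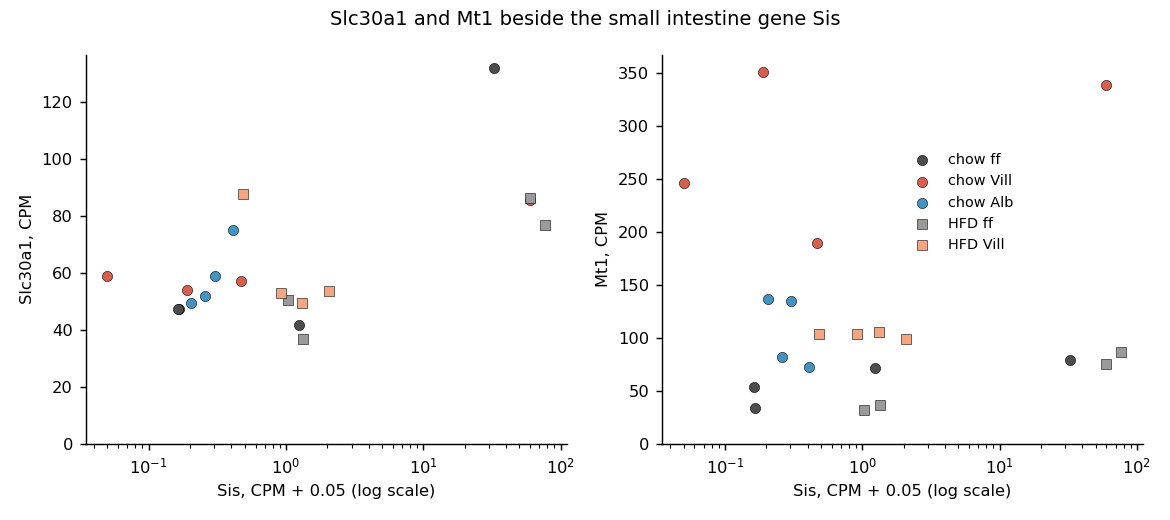
Slc30a1 and Mt1 in CPM (linear axes) against Sis in CPM + 0.05 (log axis) in the 20 libraries, with chow as circles and HFD as squares. The 4 libraries with Sis above 30 CPM have Slc30a1 of 77.0 to 132 CPM, and the HFD Vill libraries have the narrowest range of Mt1 at low Sis.

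Slc39a4 (ENSMUSG00000063354, mm39 chromosome 15 from 76496583 to 76501584, minus strand), the luminal zinc importer, was abundant and variable. Chow ff had 257, 294, 161 and 222 CPM, chow Vill 323, 138, 84.0 and 287, and chow Alb 201, 125.5, 212 and 138. HFD ff had 158, 201, 277 and 209.9 CPM, and HFD Vill 251, 144, 165 and 233. The groups overlapped in each comparison. On HFD the log2 fold change was -0.09 (-0.60 to 0.42), with an exact permutation p of 0.743 and an adjusted p of 0.974 in edgeR. For chow Alb over ff it was -0.47 (-1.28 to 0.35) with an exact permutation p of 0.143 and an adjusted p of 0.990, and for chow Vill over ff it was -0.17 (-0.98 to 0.64). Of the 4 genes in the HFD fit 0 were called, against 0.00564% of the 17715 genes tested there. In chow Alb against ff 0 of all 19701 genes tested were called, so nothing is read from either count.

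Levels between genes were compared as CPM per kilobase of the deposited gene length. In chow ff the order was Slc39a4 (75.2 ± 18.3), Mt1 (48.1 ± 16.0), Slc30a1 (12.8 ± 8.25), Mtf1 (4.90 ± 0.218), Mt2 (0.440 ± 0.233) and Mt4 (0.188 ± 0.223). The first and the second in this order overlapped within their SDs, as did Slc30a1 and Mtf1, and Mt2 and Mt4. In chow Vill, Mt1 led with 226 ± 61.9 CPM per kilobase, ahead of Slc39a4 with 67.0 ± 37.0. In HFD Vill the 2 were closer, with 82.9 ± 2.19 for Mt1 and 63.9 ± 16.7 for Slc39a4. The length deposited for Mt1, 1246 bases, equals its whole span, which lowers its value per kilobase against a spliced length. The count of Mt2 is limited by the bases it shares with Gm45774, so its place in this order is uncertain.

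None of the other zinc exporters of the Slc30 family was called, with 6 of 9 tested on HFD and 7 of 9 on chow. Their median log2 fold change was 0.03 in HFD Vill over ff (all genes -0.004), -0.08 in chow Alb over ff (all genes 0.00) and -0.03 in chow Vill over ff (all genes 0.003). Per length the leading exporters were Slc30a4, which loads vesicles, at 19.2 ± 5.44 CPM per kilobase in chow ff, and Slc30a5 and Slc30a6, which pair in the secretory pathway, at 9.19 ± 1.05 and 7.91 ± 0.768. Slc30a10, chosen after its values were seen and known as a manganese exporter, had the largest HFD value of this list (log2 -3.32, -6.65 to 0.02, adjusted p = 0.932 in edgeR). It was 35.3, 7.10, 45.8 and 0.327 CPM in HFD ff and 2.07, 0.0459, 6.65 and 0.181 in HFD Vill, so that its high libraries were again HFD ff 1 and 3.

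Among the zinc importers of the Slc39 family, 0 of the 12 tested were called in any comparison. Their medians were 0.04 in HFD Vill over ff, -0.02 in chow Alb over ff and 0.04 in chow Vill over ff. Slc39a1, an importer at the cell membrane, led with 44.8 ± 3.20 CPM per kilobase in chow ff and 45.6 ± 4.16 in chow Vill. Slc39a5, which sits on the basolateral side of gut cells, was 26.9 ± 4.23 and 34.1 ± 6.88 in these groups, and Slc39a11 was 25.6 ± 3.46 and 26.3 ± 3.79. Slc39a13, which supplies zinc in the secretory pathway and was chosen after its values were seen, was higher in all 4 chow Alb libraries (14.62 to 15.7 CPM) than in ff (11.3 to 14.59) and Vill (11.8 to 14.0), with adjusted p-values of 0.990 and 0.551 in edgeR. Every Alb library lay above every ff library for 1.23% of the 19701 genes tested. Slc39a4 exceeded each of these other importers per length in every group mean.

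**Figure D5:**
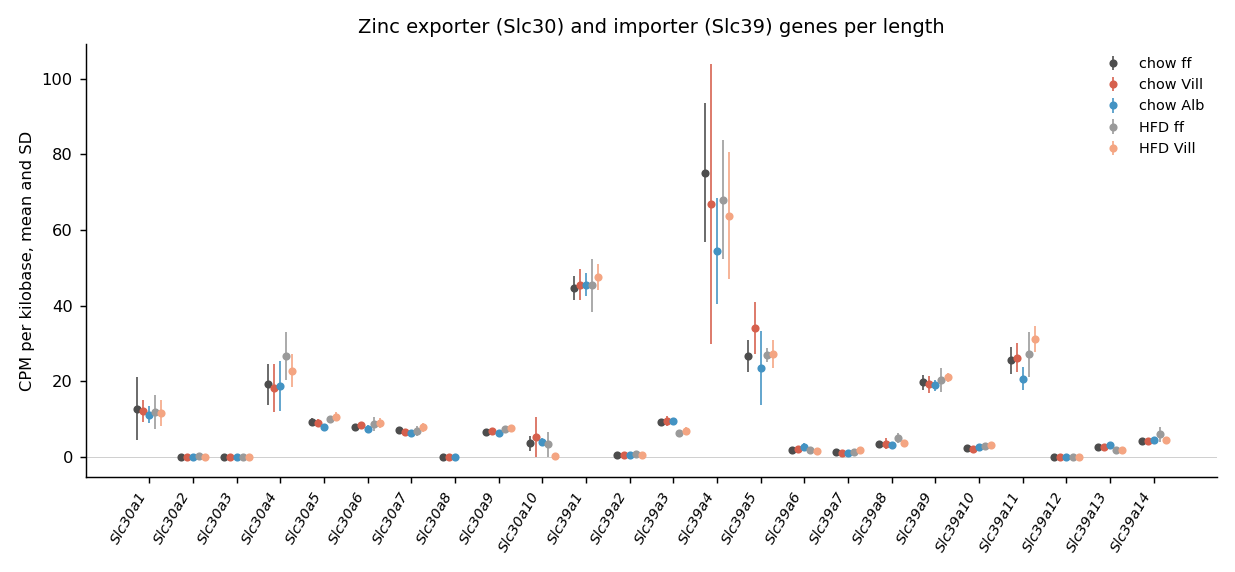
Zinc exporter (Slc30) and importer (Slc39) genes in CPM per kilobase of deposited length, by group; points are means and lines are SDs (n = 4). Slc39a4 (75.2 in chow ff) and Slc39a1 (44.8) are the highest, and Slc30a10 is lowest in HFD Vill (0.344).

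Genes of related metals and of pathways known to act on Mt1 were examined as lists, and no gene of them was called in any of the 4 comparisons. Of the 11 copper handling genes tested, 5 were higher and 6 lower in HFD Vill than in ff (median log2 -0.03), and 6 were higher and 5 lower in chow Vill than in ff (median 0.02). The copper chaperone Atox1 was 68.9 ± 3.99 CPM per kilobase in chow ff and 70.7 ± 4.46 in chow Vill, the copper importer Slc31a1 was 38.9 ± 4.06 and 41.9 ± 6.74, and the ferroxidase Heph was 29.4 ± 6.95 and 26.4 ± 8.09. On HFD the chaperone gene Ccs, which ranked above Heph there, was 28.6 ± 8.70 in ff and 25.1 ± 3.66 in Vill. Iron handling genes had a median of -0.28 in HFD Vill over ff, with 2 of 8 higher, and of 0.05 in chow Vill over ff, with 6 of 10 higher. The ferritin chains Fth1 and Ftl1 were -0.50 (-1.08 to 0.07) and -0.45 (-0.97 to 0.08) on HFD, with adjusted p-values of 0.932 each in edgeR. Tfrc, the transferrin receptor and the third of this list per length, had the opposite sign there, 0.45 (-0.77 to 1.67, adjusted p = 0.937). On chow Tfrc was 145 to 188 CPM in Alb, 256 to 522.5 in Vill and 159 to 544.5 in ff. Its log2 fold change was -1.22 (-1.94 to -0.50, adjusted p = 0.990 in edgeR) for Alb over ff and 1.09 (0.37 to 1.81, adjusted p = 0.515) for Vill over Alb, where the groups did not overlap. Every Vill library lay above every Alb library for 2.59% of the 19701 genes tested. Fth1 was 1471, 917, 1732.5 and 801 CPM in the HFD ff libraries, highest in HFD ff 1 and 3, and 881, 787, 1010.2 and 792 in HFD Vill.

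Glucocorticoid targets numbered 10 tested, of which 5 were higher in chow Vill than in ff (median -0.01) and 4 in HFD Vill than in ff (median -0.04). In chow Alb over ff 8 of the 10 were higher, with a median of 0.23 and 0 called. The cell cycle inhibitor Cdkn1a, highest of this list per length, was 348 ± 79.8 CPM in chow ff and 361 ± 113 in chow Vill. The kinase gene Sgk1 was 213 ± 174 CPM in chow ff and 248 ± 20.7 in chow Vill, and Ddit4, an inhibitor of growth signaling, 55.3 ± 5.10 and 69.9 ± 15.7. Nrf2 targets, which mark oxidative stress, had 1 of 12 higher and 11 lower in chow Vill than in ff, with a median of -0.09, a largest value of 0.03 for Hmox1 and 0 called. On HFD 5 of these 12 were higher and 7 lower (median -0.10). Their most abundant members per length, Gstm1, Srxn1 and Txnrd1, were -0.08 (-1.0 to 0.83), -0.17 (-1.0 to 0.66) and -0.02 (-0.26 to 0.22) in chow Vill over ff, and Gsr, which ranked above Txnrd1 on HFD, was 0.08 (-0.23 to 0.39) in HFD Vill over ff.

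Genes most like Mt1 were sought by the Pearson correlation of log2 CPM over libraries, which share their genotype groups, so that any gene that separates the groups scores high. Over the 12 chow libraries and 14073 genes these included Xrn2 (0.88), Immt (0.88), Ciapin1 (0.87) and E130309D02Rik (0.84), and Gm45774 ranked 24 (0.79). Over the 8 HFD libraries and 13854 genes they were Toe1, Gm14399 and Alg2 (0.90 each), Cdc42ep4 (0.85) and Pars2 (0.83), with Gm45774 ranking 21 (0.76). The other zinc genes were not among them: the correlation of Mt1 with Slc30a1 was 0.18 on chow and 0.49 on HFD, that with Slc39a4 was -0.28 and -0.04, and that with Mtf1 was -0.43 and -0.02. For Slc30a1 the highest values on chow were those of Tcf20 (0.92) and Rnf19a (0.91), and on HFD of Tulp3 and Inpp5a (0.97 each). For Slc39a4 they were Ctnnbip1 and BC031181 (0.96 each) on chow and Crlf2 and Nucb1 (0.96 each) on HFD. The chow and HFD genes were read from separate tables and are a description only.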

How the data were processed

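Whole colon poly-A RNA was sequenced in 20 libraries. The authors deposited raw read counts for each gene and library, per the file headers, and 28 further per-sample columns were not used. Tools listed in the submitters' processing notes are edgeR 3.22.5, DESeq2 1.20.0, HISAT2 2.0.5 and featureCounts 1.5.0-p3, with mm39 as the genome, and the strand setting and annotation release are not given in the sources used here. Counts were fitted with edgeR 4.0.16 under R 4.3.3 (TMM library scaling, default expression filter, quasi-likelihood F test, Benjamini-Hochberg over all genes tested, called at an adjusted p under 0.05), with 1 fit of the 12 chow libraries and 1 of the 8 HFD libraries, after tests on simulated data. For single genes an exact permutation test enumerated the 70 assignments of log2(CPM + 0.05), 12 tests in all, with no adjustment over them, and those of Mt1, Mt2 and Mt4 in chow Alb against ff are not given because these genes were chosen with the ff values known. DESeq2 1.42.0, limma-voom (limma 3.58.1), other filters and scalings, a replicate block and leaving out libraries were alternatives. Intervals are 95%. Labels name replicates but not litters or pooling, so p-values measure the spread between these samples.

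The members and lists were chosen with earlier results of these data known. Named were the 6 genes, Gm45774 as the overlapping gene, called list genes or otherwise the 3 list genes highest per length, and the 5 genes most correlated with Mt1, Slc30a1 and Slc39a4 at a mean of at least 2 CPM, of which 1 is not reported here. Mt3 was added after its values were seen.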

Additional observations from a re-analysis of the deposited data

Results flagged for a closer look

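In 40 sets of 4 libraries (8 genes in 5 groups), 5 had a highest library whose gap to the next exceeded Dixon's limit as a share of the range. For Mt4 this follows from reads in a single library and 0 in the others, so the chance rate of about 1 in 20 applies to the Slc30a1 values only. Mt4 had 0.139 CPM in chow Alb 1, from 4 reads, with the other Alb libraries at 0. Mt4 also had 0.039 CPM in HFD ff 2, from 1 read, with the other HFD ff libraries at 0. Slc30a1 was high in chow ff 2 at 132 CPM, in chow Vill 1 at 85.7 CPM and in HFD Vill 1 at 87.8 CPM. Sis was 32.7 CPM in the first and 59.6 CPM in the second of these Slc30a1 libraries, and 0.436 CPM in the third.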

How the results depend on the processing

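Few reads limit Mt2 and Mt4, whose ratios rest on at most 63 reads a library. For Mt2 the bases shared with Gm45774 limit the count as well. The position of each colon piece is not given. The number of called genes depended on the tool: DESeq2 called 4 genes in HFD Vill against ff, 4 in chow Alb against ff, 4 in chow Vill against ff and 65 in chow Vill against Alb, where edgeR called 1, 0, 1 and 1. Without the expression filter 2 genes were called in chow Vill against ff. Without HFD ff 1 and 3, 2 genes were called on HFD by edgeR, by DESeq2 and with RLE scaling and 1 by limma-voom, where Gm45774 was no longer called (log2 10.64, adjusted p 0.9998), and Mt1 was 1.60 in edgeR (1.596), 1.600 in DESeq2, 1.596 in limma-voom and 1.601 with RLE scaling. Leaving out these 2 libraries was taken from earlier results of these data, and the last 3 fits were chosen after seeing the data. The same 4 fits turned Slc30a1 to 0.485, 0.490, 0.465 and 0.491 and Mt3 to 0.300, 0.307, 0.295 and 0.306, and limma-voom on all 8 libraries gave Slc30a1 0.002. Leaving out 1 library at a time gave -0.26 to 0.16 for Slc30a1, -0.54 to 0.20 for Mt3 and -0.22 to 0.055 for Slc39a4 on HFD, and -0.09 to 0.12 for Mtf1, -0.36 to 0.38 for Slc30a1 and -0.88 to 0.77 for Gm45774 in chow Alb against ff. Mt1 kept its direction under every alternative run, from 0.65 to 1.10 on HFD and 0.65 to 1.01 in chow Alb against ff with 1 library left out. Same-numbered libraries correlated over 0.1 in 4 of 12 chow pairs (-0.571 to 0.472) and 2 of 4 HFD pairs (-0.395 to 0.446), so the numbers were not taken as pairs. With a replicate block 0 genes were called in chow Vill against ff and 0 in chow Vill against Alb, and the value of Mt1 was 0.97 on HFD and 0.85 in chow Alb against ff. The cause of these differences was not tested.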
